A study of Rattus norvegicus with 26 samples.

Results

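Supplementation of the diet with vitamin D3 above its normal amount was examined in the hippocampus of aging rats. The comparison takes the 18 arrays of rats fed the high or the control diet, out of 26 arrays in the study. All were male rats of the F344 strain, 18 months old, with 1 array of hippocampal RNA for each rat. The 9 rats on the high diet received 10000 IU of cholecalciferol (vitamin D3) per kg of diet, and the 9 control rats received 1000 IU per kg. Both groups ate the same purified AIN-93G base for 5 to 6 months, so the control rats were not free of vitamin D and the contrast is between 2 fed amounts. The remaining 8 arrays came from rats on 100 IU per kg, which are given here only beside the other diets. Rats were housed in pairs, and a tail mark told the mates apart. The cage numbers in the array descriptions placed the 18 rats in 10 cages, 5 of each diet, with a single measured rat in 1 cage of each diet. Cages held 1 diet each, so a difference between diets is also a difference between sets of cages.

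Cholecalciferol is hydroxylated in the liver, chiefly by Cyp2r1, and then by Cyp27b1 to the hormone calcitriol. Calcitriol binds the vitamin D receptor Vdr, which pairs with a retinoid X receptor on DNA and raises the transcription of targets such as Cyp24a1, the enzyme that breaks the hormone down. In the aging hippocampus the hormone has been studied for its actions on calcium channels, the slow afterhyperpolarization, synaptic vesicle traffic and memory.

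Values are deposited log2 intensities of probe sets, so a difference of 1 is a doubling. Each of 14506 genes was represented by its brightest probe set on average. Tests covered the 8485 genes (58.5%) that reached on average the all-probe-set median of 6.94, called the intensity limit here. Differences are the mean of the 9 high rats minus the mean of the 9 control rats. They were tested with limma over all 26 arrays, 2-sided, with Benjamini-Hochberg adjustment over the 8485 genes, and a gene was to be called at an adjusted p under 0.17. Where an unadjusted p is given it is from the same fit. Among the 18 arrays the median value varied only from 6.92 to 6.96, and none was identical to another. Each correlated with the others at 0.993 to 0.997 on average, lowest for control rat 17 (0.9935) and high rat 19 (0.9943). Array quality weights were unequal, at 0.474 for control rat 17 and 0.543 for high rat 19, up to 1.64 for control rat 10. The weights entered the fit only as an alternative. The markers of the tissue were present, with mean levels in the control rats of 12.05 for Wfs1 (CA1 neurons), 11.17 for Cpne4 (CA3), 10.68 for Prox1 (dentate granule cells) and 13.60 for the astrocytic glutamate transporter Slc1a2. Nothing in the labels says that RNA was prepared in separate batches, and p-values measure the spread between these rats.

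No gene was called between the high and the control diet. Of the 8485 genes, 0 (0%) had an adjusted p under 0.17 in limma, and the smallest adjusted p was 0.921. An unadjusted p under 0.05 was reached by 393 genes, which is 4.63% of those tested. Of these genes 185 (2.18% of all tested) had a higher mean on the high diet and 208 (2.45%) a lower mean. The share of higher means among them was thus 47.1%, but it was 57.0% after quantile normalization, 79.6% after the arrays were centred on the medians of all probe sets and 50% after centring on the medians of the tested genes. The array-median centring moved the median difference of all tested genes from 0.00043 to 0.013, so small differences of whole groups of genes depend on the scaling. Over all tested genes 4292 (50.6%) had a higher mean on the high diet and 4193 (49.4%) a lower one. After centring on array medians 65.1% of all tested genes had a higher mean. Counts of higher genes given below for that centring are to be read beside this share.

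Differences were small beside the spread between rats. The median size of a difference was 0.024, whereas the median gap between the mates of a cage was 0.062, and the gap was larger than the difference in 88.1% of genes (7475). A gap compares 2 single rats, and a difference compares 2 means of 9 rats. The gap would be larger in most genes even without an effect of diet, so this share does not measure one. The 95% confidence interval of the difference lay within 1.2-fold in either direction for 8356 genes, or 98.5%. In 0 genes (0%) did the 9 high rats and the 9 control rats fail to overlap. Differences above 0.25 in size were found in 11 genes, 9 of them higher and 2 lower on the high diet, and in 1 gene the difference was above 0.5. The SD within a diet was much the same in both groups, with medians of 0.069 in control and 0.071 in high rats.

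Taking the cages into account widened the errors and left fewer genes at a low p. With cage as a random block in limma, at an estimated correlation of 0.136 between mates, 297 genes (3.5%) had an unadjusted p under 0.05, all of them among the 393. The median standard error rose from 0.035 to 0.037, and the smallest adjusted p was 1.00 with the block in limma. With each cage averaged first, an exact permutation test of 5 against 5 cages gave an unadjusted p under 0.05 for 247 genes (2.91%), of which 168 were among the 393. Its smallest possible p is 0.00794, which 40 genes reached, so after adjustment over 8485 genes this exact permutation test cannot call any gene. Deviations from the diet mean of mates correlated at 0.0063 on average over 8 pairs, with a range of -0.25 to 0.11. Over the 64 other pairs of rats on the same diet the average was -0.14. Subtracting the diet mean by itself makes deviations within a diet correlate negatively on average. The value for mates is thus to be read beside -0.14, above which it lay, and does not show mates to be uncorrelated.

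**Figure D1:**
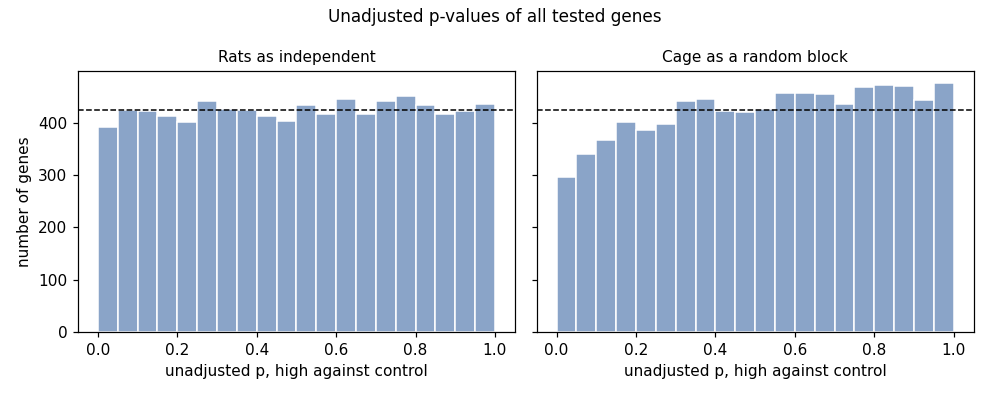
Number of genes (y axis) by unadjusted p in limma (x axis, in bins of 0.05) for the 8485 tested genes, with rats taken as independent on the left and with cage as a random block on the right. The dashed line marks the number per bin if p were spread evenly; the lowest bin holds 393 genes on the left and 297 on the right.

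Of the genes of the vitamin D system itself none was called, and their means lay close together. Of 12 genes of the receptor, enzymes and carriers that the array holds, 4 were tested, with 2 means higher and 2 lower on the high diet and a median difference of 0.0053, beside 0.00043 over all tested genes. Quantile normalization, like centring on array medians, left 3 of the 4 higher. Rxra, a retinoid X receptor that partners Vdr, had a lowest, median and highest level of 8.26, 8.43 and 8.65 in control rats and 8.39, 8.50 and 8.63 in high rats. The ranges overlapped throughout, and the difference was 0.072 (SE 0.048, unadjusted p = 0.15). Rxrb, its relative, differed by -0.0050 (SE 0.035). Cyp2r1, the liver-type 25-hydroxylase, differed by -0.027 (SE 0.043). Pdia3, a protein disulfide isomerase also described as a membrane receptor of calcitriol, differed by 0.016 (SE 0.021).

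The other 8 genes lay under the intensity limit and were not tested. Vdr had mean levels of 5.28 in control and 5.26 in high rats, with ranges of 5.18 to 5.34 and 5.17 to 5.32. Its target Cyp24a1 had means of 5.40 and 5.36, and the activating enzyme Cyp27b1 had means of 5.88 in both groups. Levels of this kind lie near the bottom of the scale, on which the lowest value in the table was 4.28, and a small change in so weak a signal could be missed. Cyp27a1, another 25-hydroxylase, had means of 6.61 and 6.59. The plasma carrier Gc (5.28 and 5.33) and its uptake receptors Lrp2 (5.41 and 5.40) and Cubn (5.40 and 5.44) were equally low. Rxrg was the brightest of these 8, at 6.74 ± 0.25 in control rats and 6.89 ± 0.30 in high rats (SD, n = 9 each).

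Of 6 tested genes known to respond to the hormone, 3 had higher and 3 lower means, 0 reached an unadjusted p under 0.05, and the median difference was 0.00099. Calb1, which encodes the calcium buffer calbindin, had a lowest, median and highest level of 10.09, 10.23 and 10.31 in control and 10.21, 10.27 and 10.49 in high rats. The difference was 0.058 (SE 0.044), within the spread of either group. Cdkn1a, the cell cycle inhibitor p21, ran the other way, from 7.17 to 8.08 in control rats (median 7.48) and from 7.08 to 7.69 in high rats (median 7.36). Its difference of -0.20 (SE 0.12, unadjusted p = 0.095) was no larger than the SD of 0.28 among control rats.

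The 20 genes with the smallest p, 10 in each direction, had differences between 0.082 and 0.21 in size. None was called: the adjusted p in limma was 0.921 for each of them. They were picked for a small p on these same rats, so the separation of their rats or cages described below is no separate evidence. Among the 10 with higher means were Pnoc and Nmbr, a peptide precursor and a peptide receptor, Polr1f and Polr1b, both subunits of RNA polymerase I, the proteasome assembly chaperone Psmg1, and Dolk, the dolichol kinase of protein glycosylation.

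Pnoc, the precursor of the opioid-like peptide nociceptin, had a lowest, median and highest level of 6.80, 6.99 and 7.09 in control rats and 6.97, 7.24 and 7.34 in high rats. Of the 9 high rats 7 lay above all control rats, and the 2 others, from different cages, lay among them. The difference was 0.21 (SE 0.048), with an unadjusted p of 1.92e-04 in limma and 3.07e-04 with the cage block. Over cage means the exact permutation p was 0.0159, and 4 of 5 high cages lay above all control cages. Nmbr, the receptor of neuromedin B, ranged from 8.02 to 8.25 in control rats (median 8.10) and from 8.01 to 8.43 in high rats (median 8.26). Of the high rats 6 lay above every control rat, but 1 lay below every one. The difference was 0.17 (SE 0.044), with an exact permutation p of 0.0159 over cages.

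Psmg1 was one of 4 genes among these 10 in which all 5 high cages lay above all 5 control cages, with Polr1f, Trib2 and Polr1b. Its levels were 8.80, 8.90 and 8.97 (lowest, median and highest) in control rats and 8.90, 8.99 and 9.00 in high rats, and the difference was 0.082 (SE 0.023). The exact permutation p over cages was 0.00794, the smallest possible, which 40 of all 8485 tested genes reached. The stretch before its start, on the minus strand at chr11:48755041-48755290 of assembly GRCr8 (RefSeq), is shown because it was the only one among the leading genes with a match to the DR3 vitamin D response element, a direct repeat with 3 bases between its half-sites. The match is in capitals, 151 to 137 bases before the start.
Psmg1: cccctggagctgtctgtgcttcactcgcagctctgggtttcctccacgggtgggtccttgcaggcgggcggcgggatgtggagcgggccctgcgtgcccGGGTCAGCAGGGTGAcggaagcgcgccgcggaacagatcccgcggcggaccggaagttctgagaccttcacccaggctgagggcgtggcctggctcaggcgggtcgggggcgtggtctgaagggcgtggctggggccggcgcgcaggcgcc
The element was searched on both strands from 250 bases before to 50 after the start. It was found in 1 of the 16 promoters at hand for the 20 leading genes. Over the genes with an unadjusted p under 0.05 it was in 1 of 349 promoters (0.287%), beside 117 of all 33469 promoters (0.35%), so such matches were as rare among these genes as elsewhere. It was in 0 of 21 promoters of the vitamin D lists, which covered 20 genes. No promoter was at hand for Cyp24a1, so that gene was not searched. The letters allowed in the half-sites were settled after several forms had been tried on these promoters, and a stricter form gave no match in Psmg1, so the match is a description only.

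Of the RNA polymerase I subunit genes, Polr1f ranged from 7.26 to 7.36 in control rats (median 7.31) and from 7.25 to 7.60 in high rats (median 7.45), with 7 of 9 high rats above all control rats. The difference was 0.14 (SE 0.039). Polr1b had a control median of 8.51 and a high median of 8.62, with 6 high rats above all control rats and a difference of 0.095 (SE 0.029). Trib2, a pseudokinase expressed in neocortex and subiculum, had medians of 9.04 and 9.15 and a difference of 0.16 (SE 0.044). Lxn, which encodes the carboxypeptidase inhibitor latexin, had medians of 10.83 and 11.05, and 7 high rats lay above all control rats while 1, at 10.70, lay below them all. Dolk (0.14, SE 0.039), Nipsnap3b (0.12, SE 0.036) and the kinase gene Uhmk1 (0.085, SE 0.023) completed the 10, each with all 9 high rats above the control mean. Another probe set of Uhmk1, with a mean of 10.02, gave -0.027, so the probe sets of this gene disagreed.

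The 10 genes with lower means on the high diet and the smallest p included 4 that encode RNA-binding or splicing factors: Rbm28, Rbm5, Tia1 and Ccnl2. Rbm28, a nucleolar RNA-binding protein, had a lowest, median and highest level of 7.35, 7.53 and 7.65 in control rats and 7.22, 7.39 and 7.47 in high rats. All 9 high rats lay below the control mean, 3 of them below every control rat. The difference was -0.17 (SE 0.041, unadjusted p = 2.34e-04), and the exact permutation p over cages was 0.00794. Rbm5, a splicing regulator of apoptosis genes, ranged from 10.14 to 10.31 in control and from 10.09 to 10.18 in high rats, a difference of -0.086 (SE 0.022). Tia1, a stress granule protein, had medians of 10.25 and 10.12, with 6 high rats below all control rats. Ccnl2, cyclin L2, had medians of 9.46 and 9.35, and 7 high rats lay below all control rats.

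Commd1, a regulator of copper handling and NF-kappaB, had a lowest, median and highest level of 7.71, 7.87 and 8.04 in control rats and 7.60, 7.69 and 7.83 in high rats. Of the high rats 5 lay below all control rats, and the difference was -0.17 (SE 0.044). Of the 10 tested Commd genes 6 means were higher and 4, with Commd1, lower; both tested genes of the partner proteins, Ccdc22 and Ccdc93, were lower. The next smallest unadjusted p among these 12, for Commd8, was 0.26. C8g, a complement component gene, had medians of 9.21 and 9.06 and a difference of -0.16 (SE 0.042). The lowest high rat, at 8.81, stood apart from the others, and the difference was between -0.18 and -0.13 over all alternatives tried. Rad17, a DNA damage checkpoint gene, differed by -0.10 (SE 0.030), Glmn by -0.12 (SE 0.036), the procollagen proteinase gene Bmp1 by -0.095 (SE 0.028) and Arhgap17 by -0.13 (SE 0.039). For Glmn and Arhgap17 the exact permutation p over cages was 0.0794 and 0.0952, so neither was under 0.05 with the cage as the unit.

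**Figure D2:**
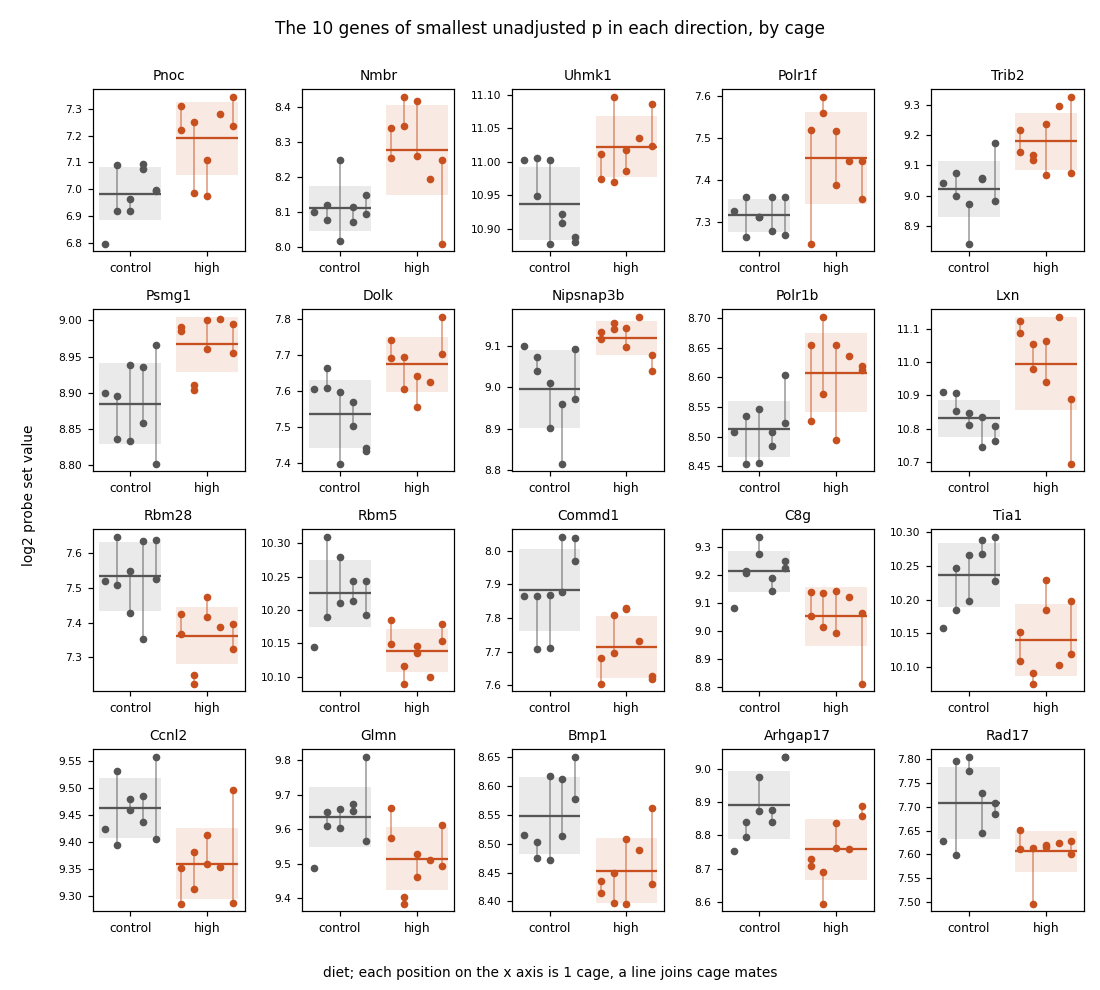
Log2 values (y axis, own scale in each panel) of the 10 genes with the smallest unadjusted p that had higher means on the high diet (upper 2 lines of panels) and the 10 with lower means. Each position on the x axis is a cage, each point a rat, a line joins mates, and the horizontal line and band are the mean and SD of the 9 rats of a diet; groups shift but overlap in every panel.

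Genes of blood vessels had lower means on the high diet. All 15 tested endothelial genes were lower, with a median difference of -0.079 beside 0.00043 over all tested genes, and 5 of the 15 had an unadjusted p under 0.05 in that direction, where 2.45% of all tested genes did. The direction held for all 15 after quantile normalization, and 1 of the 15 was higher after centring on array medians. None of the 15 was called. With the cage block in limma 4 of the 15 had an unadjusted p under 0.05, beside 3.5% of all tested genes. By exact permutation over cages 3 did, beside 2.91%. Over all alternatives tried, including each rat and each cage left out in turn, the list's median lay between -0.096 and -0.058. The endothelial list, like the other lists here, was chosen with earlier results of these data known, so its counts are a description only. In bulk tissue, fewer vessel cells and less RNA per cell cannot be told apart.

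Abcg2, an efflux transporter of the blood-brain barrier, had a lowest, median and highest level of 7.77, 7.84 and 7.95 in control rats and 7.35, 7.62 and 7.88 in high rats. As many as 7 high rats lay below every control rat. The difference was -0.22 (SE 0.074, unadjusted p = 0.0066, adjusted p in limma 0.991), with an exact permutation p of 0.0397 over cages. Esam, an endothelial adhesion molecule, ranged from 7.30 to 7.68 in control rats (median 7.47) and from 7.18 to 7.40 in high rats (median 7.38), a difference of -0.13 (SE 0.046). Cldn5, the main claudin of the barrier's tight junctions, ranged from 7.65 to 7.89 (median 7.72) and from 7.56 to 7.75 (median 7.66), a difference of -0.097 (SE 0.038). For both, all 9 high rats lay below the control mean and 3 below every control rat. The other 2 of the 5 were the efflux pump Abcb1a (-0.12) and the organic anion transporter Slco1a4 (-0.098, SE 0.045); for Slco1a4 the exact permutation p over cages was 0.357. The brightest endothelial gene, the glucose transporter Slc2a1, differed by only -0.040 (SE 0.039).

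In the mean level of the 15 endothelial genes, control rats ran from 8.43 to 8.56 with a median of 8.52, and high rats from 8.37 to 8.46 with a median of 8.43. Below every control rat lay 5 high rats, while the other 4 fell among the control rats. The 6 tested pericyte and smooth muscle genes went the same way, with 5 lower and 1 higher and a median of -0.057, or -0.12 under a stricter intensity limit of 9.20. Rgs5, a pericyte marker, ranged from 9.89 to 10.22 in control and 9.78 to 10.02 in high rats, a difference of -0.12 (SE 0.040), and it was the 1 gene of that list with an unadjusted p under 0.05. Acta2, smooth muscle actin, differed by -0.048 (SE 0.025). Of the 4 tested fibroblast, meningeal and matrix genes 3 were lower and 1, the fibroblast marker Dcn (0.034), was higher, with a median of -0.087. The list's median was -0.010 when genes under the intensity limit were let in. Among fibroblast markers under that limit, Lum differed by 0.18, Col3a1 by 0.012, Col1a1 by 0.0026 and Col1a2 by -0.012. Fibroblast markers thus did not share the lower means of the vessel genes. Fn1, fibronectin, had a lowest, median and highest level of 8.59, 8.71 and 9.03 in control rats and 8.39, 8.60 and 8.67 in high rats. All 5 high cages lay below all control cages, and the difference was -0.19 (SE 0.066). Fn1 is also a marker of the subiculum, and there it stood against the other markers.

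Markers of the neighbouring cortex had higher means on the high diet. Of 7 tested neocortex and subiculum markers 6 were higher and 1, Fn1, was lower (as many with either other scaling), with a median difference of 0.15. Among the 7, 4 higher and 1 lower gene had an unadjusted p under 0.05, where 2.18% and 2.45% of all tested genes did. The list was chosen with earlier results of these data known, and Trib2 was among the leading genes above. These counts are thus a description and no separate evidence. Slc17a6, the vesicular glutamate transporter VGLUT2 of subicular, thalamic and deep cortical neurons, had a lowest, median and highest level of 6.98, 7.29 and 7.73 in control rats and 7.00, 7.71 and 8.02 in high rats. Of the high rats 4 lay above every control rat and 1 lay at the bottom of the control range. The difference was 0.35 (SE 0.11), with an exact permutation p of 0.0397 over cages. Nr4a2, a nuclear receptor of claustrum, deep cortex and subiculum, had medians of 11.96 and 12.12 and a difference of 0.15 (SE 0.046), and Etv1 one of 0.096 (SE 0.038).

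By the mean of the 7 markers, 8 of 9 high rats lay above all 9 control rats, which ran from 9.41 to 9.65. The exception, high rat 25, had the lowest value of all 18 at 9.38, and its mate lay at 9.66. The median over the markers was between 0.086 and 0.17 over all alternatives tried; it was lowest without the cage of high rats 20 and 21. How much cortex or subiculum each tissue block held was not measured, and its part in the other differences was not tested. Of the 4 tested genes of the thalamus and habenula list 0 were higher and 0 had an unadjusted p under 0.05, with a median of -0.094. Zic1 (-0.31) and Prkcd (-0.16) differed most, while Nrgn (-0.029) and Lhx9 (-0.0005) differed little. After quantile normalization 1 of the 4 was higher, as it was with arrays centred on their medians. Nrgn is not specific to the thalamus, and the list's markers Tcf7l2, Rora and Lef1 were not tested. The list thus does not measure how much thalamus a tissue block held. CA1 markers (2 of 5 higher, median -0.011), CA3 and CA2 markers (4 of 7, 0.0091) and dentate markers (1 of 4, -0.026) had medians near 0, which took the other sign under 8, 13 and 1 of the 43 alternatives.

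**Figure D3:**
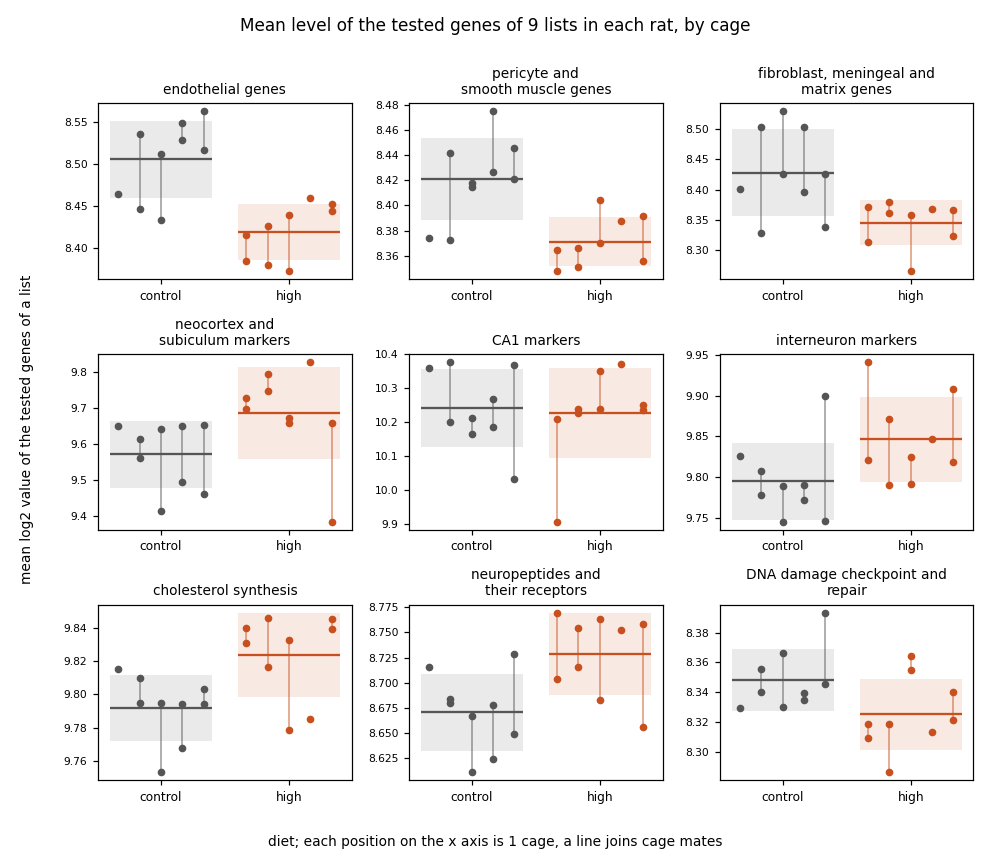
Mean log2 level of the tested genes of 9 lists in each rat (y axis, own scale in each panel), by cage along the x axis, with mates joined and the mean and SD of the 9 rats of a diet as line and band. Endothelial genes sit lower in the high rats (8.37 to 8.46) than in the control rats (8.43 to 8.56) with overlap, and 8 of 9 high rats sit above all control rats in the cortical markers while 1 is the lowest.

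Neuropeptide genes were mostly higher on the high diet. Of 26 tested peptides and receptors 19 had higher and 7 lower means, with a median of 0.045, and 5 higher and 0 lower had an unadjusted p under 0.05, where 2.18% and 2.45% of all tested genes did. After quantile normalization 19 of the 26 were higher too, and with arrays centred on their medians 21. Under the stricter intensity limit the median was 0.0064. Beside Pnoc and Nmbr, both among the leading genes above, the 5 were Trhr, Sstr3 and Oprm1, receptors of thyrotropin-releasing hormone, somatostatin and opioids. This list too was chosen with earlier results of these data known, so its counts are a description only. Trhr had a lowest, median and highest level of 6.93, 7.03 and 7.40 in control rats and 7.04, 7.45 and 7.92 in high rats. Of the high rats 5 lay above every control rat, and the difference was 0.29 (SE 0.089) with an exact permutation p of 0.0238 over cages. Sstr3 and Oprm1 differed by 0.13 and 0.090. Several of these genes are also expressed in subiculum and cortex, whose markers were also higher on the high diet, and the part of this in the peptide genes was not tested.

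Interneuron markers were higher for 11 of 12 tested genes, with a median of 0.037. Only Pnoc among them had an unadjusted p under 0.05. Slc32a1, the vesicular GABA transporter, had medians of 8.60 and 8.65 and a difference of 0.070 (SE 0.046). Sst, somatostatin, had medians of 12.23 and 12.24 and a difference of 0.042 (SE 0.040), and Gad2, a GABA-synthesizing enzyme, differed by 0.0025 (SE 0.031). The abundant members thus differed by less than the spread between rats. The level of the list as a whole overlapped, at 9.74 to 9.90 in control and 9.79 to 9.94 in high rats.

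Genes of cholesterol synthesis, a pathway with an intermediate that is also the skin's precursor of vitamin D3, were higher for 15 of 17 tested members. The median was 0.030, and as many were higher after quantile normalization, or 16 of the 17 with arrays centred on their medians. Idi1, isopentenyl-diphosphate isomerase, had a lowest, median and highest level of 8.49, 8.56 and 8.65 in control rats and 8.59, 8.65 and 8.90 in high rats. All 9 high rats lay above the control mean and 3 above every control rat, a difference of 0.11 (SE 0.041). Sc5d, a sterol desaturase, ranged from 12.07 to 12.19 and from 12.12 to 12.24, a difference of 0.051 (SE 0.023). Idi1 and Sc5d had an unadjusted p under 0.05 and no other member did. By the mean of the 17 genes 7 high rats lay above every control rat and 2 fell among them. The pathway's sensor gene Insig1 differed by 0.083 (SE 0.045).

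Mitochondrial genes had small, mostly higher means. Of 33 complex I subunits 23 were higher (median 0.026), of 34 subunits of complexes II to V 26 (median 0.015), and of 15 tricarboxylic acid cycle enzymes 12 (median 0.018). After centring on array medians these counts were 30, 28 and 12, where 65.1% of all tested genes were higher. An unadjusted p under 0.05 was found for 2, 2 and 1 of these genes, all higher, where 2.18% of all tested genes were higher and 2.45% lower at that level. With the cage block in limma the counts were 1, 1 and 1, and by exact permutation over cages 1, 0 and 1. Ndufa1, an accessory subunit of complex I, had a lowest, median and highest level of 8.29, 8.49 and 8.70 in control rats and 8.50, 8.69 and 8.77 in high rats. All 9 high rats lay above the control mean, and the difference was 0.15 (SE 0.047, unadjusted p = 0.0038). Ndufs1, a core subunit, differed by 0.048 (SE 0.023). Atp5f1a, the alpha subunit of ATP synthase, differed by 0.072 (SE 0.025), with 7 high rats above every control rat, and Sucla2, a succinyl-CoA ligase, by 0.063 (SE 0.023).

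Lists of synaptic genes had medians between -0.0081 and 0.025. Of 34 tested genes of the presynaptic vesicle cycle 24 were higher, with a median of 0.025, and 32 were after centring on array medians. Slc17a6 apart, Ap2a1, a subunit of the clathrin adaptor of endocytosis, was the only one with an unadjusted p under 0.05, at 0.051 (SE 0.021). The clathrin heavy chain gene Cltc differed by 0.038 (SE 0.019). Glutamate receptors were higher for 7 of 20 (median -0.0081) and for 14 of 20 after centring on array medians. Among them Grin3a, an NMDA receptor subunit, ranged from 7.41 to 7.86 in control and 7.59 to 8.22 in high rats, a difference of 0.15 (SE 0.060), with high rat 19 apart from the rest at 8.22. Postsynaptic scaffolds (10 of 21 higher, median -0.0048) changed sign with the scaling too. GABA receptor subunits, of which 9 were of the A and 2 of the B type, were higher for 9 of 11 (median 0.017), with Gabra2 at 0.073 (SE 0.030) and Gabra4 at -0.066 (SE 0.034).

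For the calcium genes through which vitamin D has been studied in this tissue, the median difference was near 0 and none was called. Of 35 tested channels, pumps and release genes 11 were higher and 24 lower, 0 had an unadjusted p under 0.05, and the median was -0.0087. After centring on array medians 21 of the 35 were higher, where 65.1% of all tested genes were. The list's median took the other sign under 3 of the 43 alternatives. Cacna1d, an L-type calcium channel, had a lowest, median and highest level of 10.41, 10.55 and 10.63 in control rats and 10.37, 10.48 and 10.54 in high rats. The difference was -0.065 (SE 0.034, unadjusted p = 0.068), and the exact permutation p over cages was 0.238. Fkbp1a, which binds ryanodine receptors, differed by -0.069 (SE 0.035), and Ryr3, a ryanodine receptor, by -0.076 (SE 0.045). Among 29 calcium buffers, sensors and kinases 13 were higher, with a median of -0.000030. Hpcal1, a calcium sensor of the hippocalcin family, was the 1 member with an unadjusted p under 0.05, from 9.12 to 9.42 in control and 9.31 to 9.88 in high rats, with high rat 19 far above the rest. Of 6 potassium channel genes of the afterhyperpolarization 4 were higher, among them the subunit gene Kcnmb4 (0.077, SE 0.034) and Kcnn3 (0.14, SE 0.069), but only 3 of 6 were after quantile normalization.

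Lists of RNA processing and DNA repair genes had medians below 0, by amounts that depended on the scaling. Of 29 RNA-binding and splicing regulators 8 were higher and 21 lower (median -0.014), but 13 were higher and 16 lower after centring on array medians (median -0.00092), and the 3 with an unadjusted p under 0.05 were Rbm28, Rbm5 and Tia1. The list was drawn up with the differences of these genes known. Of 17 genes of RNA polymerase I and the nucleolus 4 were higher, Polr1f and Polr1b among them, and 13 lower (median -0.022). With arrays quantile-normalized 6 were higher and 11 lower (median -0.010), and after centring on array medians 8 were higher and 9 lower (median -0.0097). The counts by direction thus depended on the scaling, while the median lay between -0.026 and -0.0085 over all alternatives tried. Of 22 DNA damage checkpoint and repair genes 16 were lower, with a median of -0.029 and 3 lower and 1 higher at an unadjusted p under 0.05. After centring on array medians 14 of the 22 were lower. Rad50, of the double-strand break complex, ranged from 7.68 to 7.76 in control and 7.58 to 7.74 in high rats, with all 5 high cages below all control cages and a difference of -0.081 (SE 0.032). Xpc, a nucleotide excision repair factor, differed by -0.086 (SE 0.033). The 1 higher gene was Rad51c (0.091).

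Lists of ribosomal protein and stress genes had medians between 0.0038 and 0.020. Large subunit genes were higher for 21 of 40 (median 0.0038) and small subunit genes for 17 of 26 (median 0.013), with Rps15a at 0.088 (SE 0.038) the 1 gene of either list with an unadjusted p under 0.05. Antioxidant and metal genes were higher for 19 of 26 (median 0.020) and chaperones for 14 of 23 (median 0.0091), with 0 genes of either list at an unadjusted p under 0.05. Neurotrophic factors and receptors were lower for 11 of 15 (median -0.011), but 9 of 15 were higher after centring on array medians. Gfra1, a receptor of GDNF, differed by 0.097 (SE 0.039), and Vegfa by -0.087 (SE 0.046). Bmal1, a core clock gene, differed by -0.11 (SE 0.043), with an exact permutation p of 0.159 over cages; the 14 clock genes had a median of 0.014. Among genes induced by glucocorticoids the sulfotransferase gene Sult1a1 ran from 9.11 to 9.29 in control rats and from 8.65 to 9.29 in high rats, with 7 high rats below all control rats and a difference of -0.24 (SE 0.11).

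**Figure D4:**
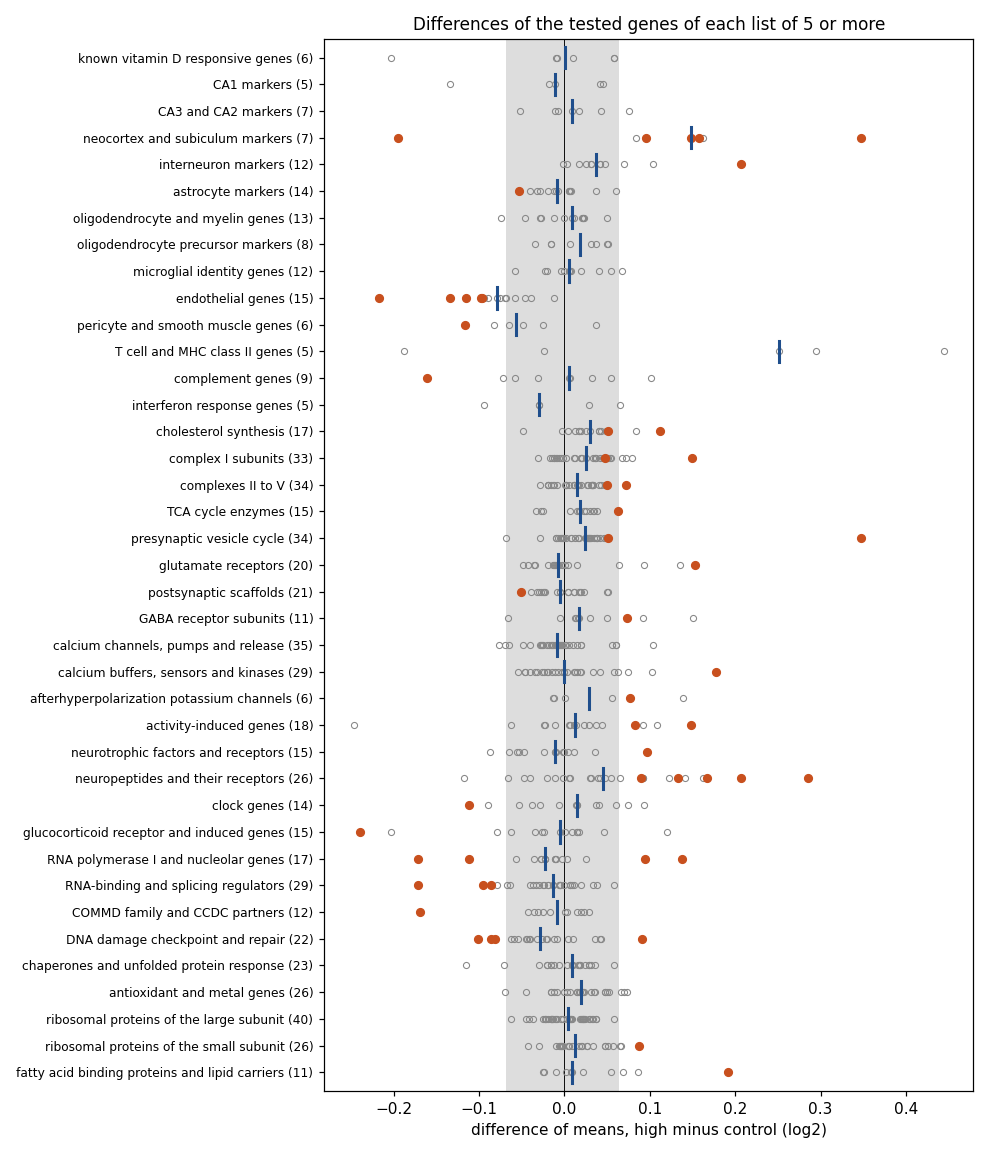
Differences of means, high minus control on the log2 scale (x axis), of the tested genes of the 39 lists with 5 or more such genes (y axis, number of genes in brackets). Filled points had an unadjusted p under 0.05, the upright bars are list medians, and the grey band runs from the 5th to the 95th percentile of all 8485 genes (-0.068 to 0.063); the medians of 3 lists, among them the endothelial genes, lie outside it.

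Lists of glial genes had medians between -0.0089 and 0.019. Astrocyte markers were higher for 6 of 14 (median -0.0089) and for 9 of 14 after centring on array medians. Gja1, the astrocytic connexin 43, was the 1 with an unadjusted p under 0.05, at -0.053 (SE 0.021). Oligodendrocyte and myelin genes (8 of 13 higher, median 0.0089), their precursors (5 of 8, 0.019) and microglial identity genes (7 of 12, 0.0059) held 0 genes at that level. Mbp, the major myelin protein, had medians of 12.71 and 12.69, and Cx3cr1, the microglial fractalkine receptor, had medians of 11.26 and 11.22. Complement genes were higher for 5 of 9 (median 0.0049), C8g being the 1 with an unadjusted p under 0.05, and interferon response genes for 2 of 5 (median -0.029). Red cell genes, as a check of blood in the tissue, lay under the intensity limit in all 4 cases, with Hbb at 6.19 ± 0.32 in control and 6.24 ± 0.20 in high rats (SD, n = 9 each).

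Several of the largest differences belonged to genes with a wide spread between rats, although Slc17a6 and Trhr, described above, were also among them. Cd74, the invariant chain of MHC class II antigen presentation, had the largest higher mean, with a lowest, median and highest level of 8.99, 9.60 and 10.06 in control rats and 9.18, 9.79 and 11.19 in high rats. Above every control rat lay 4 high rats, with high rat 25 at the top and its mate at 9.79. The difference of 0.44 had an SE of 0.29 and an unadjusted p of 0.143. RT1-Ba, a class II chain, ran likewise, from 6.73 to 7.30 in control and 6.70 to 8.27 in high rats, a difference of 0.30 (SE 0.26). Without high rat 25 the differences were 0.29 for Cd74 and 0.17 for RT1-Ba. Of 5 tested T cell and class II genes 3 were higher and 2 lower, among the latter the T cell receptor component Cd3e (-0.19, SE 0.13). Sntb1, a syntrophin, differed by 0.34 (SE 0.13, unadjusted p = 0.013) but ranged over more than a log2 unit in the control rats alone (7.31 to 8.42).

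Ttr, transthyretin, made by the choroid plexus, had the largest lower mean, with levels from 6.69 to 12.91 in control rats (median 9.15) and from 6.79 to 11.05 in high rats (median 8.44). The difference of -0.52 (SE 0.66) was far inside this spread, and it was between -0.86 and -0.081 with other choices of rats and processing. Ttr was the only tested one of 11 choroid plexus markers on the array. Another, Kcnj13, lay under the intensity limit but reached 9.46 in 1 control rat, beside a control mean of 6.30. The transcription factor Zic1, of thalamus, septum and meninges, differed by -0.31 (SE 0.17), and its control rats ran from 7.61 to 9.25. Without control rat 15 the difference of Zic1 was -0.18. Npas4, an activity-induced transcription factor, ran from 7.51 to 10.55 in control and 7.67 to 9.05 in high rats. Its difference of -0.25 (SE 0.31) turned to the other sign under 4 of 42 alternatives, at most to 0.14.

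Fabp3, the heart-type fatty acid binding protein, is a gene whose result rested on 1 rat. Control rats had a lowest, median and highest level of 7.67, 7.77 and 8.41, and high rats 7.90, 8.03 and 8.13. All 9 high rats lay above 8 of the 9 control rats, and control rat 17, at 8.41, lay above all high rats. With all rats the difference was 0.19 (SE 0.068, adjusted p in limma 0.991). Without control rat 17 it was 0.26, and the adjusted p in limma was 0.0065. Of the 11 tested genes of the lipid carrier list 8 were higher, with a median of 0.0086.

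**Figure D5:**
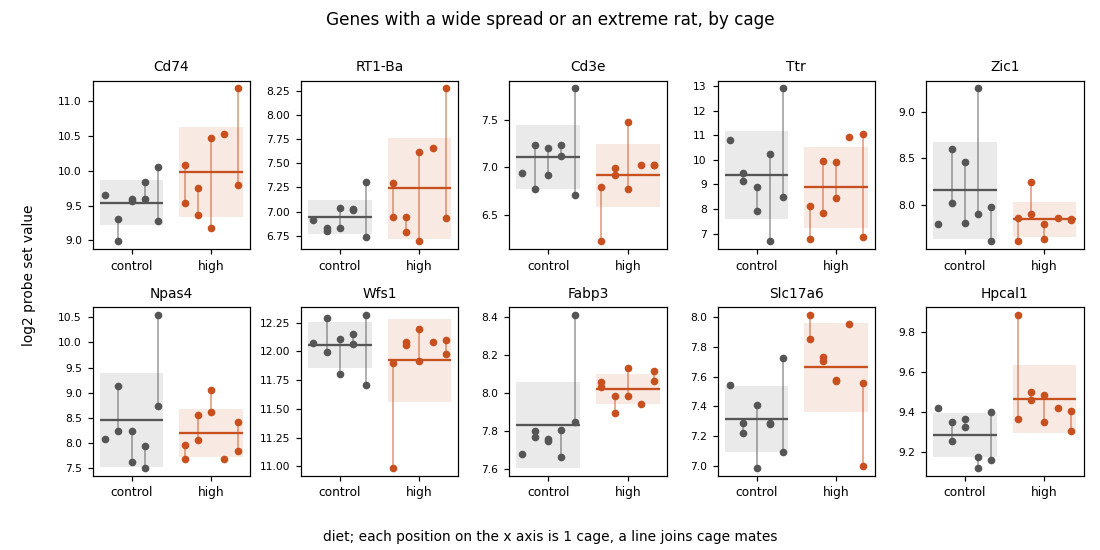
Log2 values (y axis, own scale in each panel) of 10 genes with a wide spread between rats or an extreme rat, by cage along the x axis, with mates joined and the mean and SD of the 9 rats of a diet as line and band. Single rats carry the extremes, such as the control rat at 12.91 in Ttr, the high rat at 11.19 in Cd74 and the control rat at 8.41 in Fabp3.

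The low diet is set beside these values without a test, since its comparison with control would share the control rats. For Nmbr the mean was 8.11 in low, 8.11 in control and 8.28 in high rats. For Pnoc the means were 7.14, 6.98 and 7.19 in the same order, so that control was lowest. Rbm28 had means of 7.47, 7.53 and 7.36, and Rbm5 of 10.22, 10.23 and 10.14. Abcg2 had 7.81, 7.85 and 7.64, Cldn5 7.71, 7.76 and 7.66, and Esam 7.44, 7.47 and 7.34. Cd74 had 10.05, 9.55 and 9.99, with the control diet lowest. Slc17a6 had 7.15, 7.32 and 7.66, in the order of the vitamin D content of the diet.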

How the data were processed

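The authors deposited 1 log2 value per probe set and array, from Affymetrix Rat Gene 1.0 ST arrays. The submitters' processing notes name Partek 6.6 and GCRMA without their roles, and the genome build is not given in the sources used here. Of 29214 probe sets 15310 had 1 gene symbol, 323 several and 13581 none in the platform annotation. Of the gene IDs 15279 were found in the RefSeq table of assembly GRCr8.

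The contrast was taken from a limma fit (version 3.58.1, R 4.3.3) with diet as a factor of 3 levels, and the code was tested on simulated data. Single genes were also compared by exact permutation of 9 against 9 rats and of 5 against 5 cage means, 2-sided. The contrast, the 46 gene lists (915 symbols, 804 on the array, 668 tested) and the alternatives were chosen with earlier results of these data known. Lists are described by counts and medians only. Genes named were the 10 with the smallest p and the 5 with the largest difference in each direction, all genes of the vitamin D system list, the 3 members of each list with the smallest p and, for cell types, the 2 brightest. Abcb1a, Sstr3, Oprm1, Rad51c, Kcnj13, Lum, Col3a1, Col1a1, Col1a2 and Hbb were chosen after their values were seen. The number of arrays limits the precision. Behaviour and serum vitamin D were not used here. Alternatives covered the intensity limit, probe set choice, scaling, cage, tail mark, array weights, removal of values over 2 SD from the group mean, as the series design names, and each rat or cage left out.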

Additional observations from a re-analysis of the deposited data

Results flagged for a closer look

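A rat was listed when, among the 9 rats of its diet, its gap to the nearest other value, as a share of the group's whole range, was above Dixon's 95% limit. Of 310 groups of named genes 32 (10.3%) met this, and of 88 groups of list means 10; chance gives about 1 in 20 groups. The share of the range follows each value below. No cause was tested.

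11 of the listed values came from high rat 19. High rat 19 was highest of the 9 high rats in Calb1 at 10.49 (share 0.596), Grik3 at 9.69 (share 0.589), Grin3a at 8.22 (share 0.527), Hpcal1 at 9.88 (share 0.663), Kcnn3 at 8.99 (share 0.512), Necab1 at 11.16 (share 0.607) and Nos1 at 8.40 (share 0.623). It was lowest of the 9 high rats in Rarres2 at 7.63 (share 0.582), Wfs1 at 10.99 (share 0.751), the mean of the CA1 markers at 9.91 (share 0.651) and the mean of the ependymal markers at 7.30 (share 0.61).

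8 of the listed values came from control rat 17. Control rat 17 was highest of the 9 control rats in Fabp3 at 8.41 (share 0.759), Fosl2 at 9.73 (share 0.496), Grik3 at 9.83 (share 0.688) and the mean of the activity-induced genes at 9.74 (share 0.776). It was lowest of the 9 control rats in Cpne4 at 10.82 (share 0.764), Lhx9 at 7.73 (share 0.717), Lpl at 9.34 (share 0.607) and Ryr3 at 9.71 (share 0.596).

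8 of the listed values came from control rat 12. Control rat 12 was lowest of the 9 control rats in Cacng4 at 9.07 (share 0.4999), Ctss at 12.08 (share 0.61), Dbi at 8.83 (share 0.565), Rarres2 at 7.56 (share 0.663), Stat2 at 8.53 (share 0.587), the mean of the ependymal markers at 7.31 (share 0.569), the mean of the ribosomal proteins of the large subunit at 10.85 (share 0.573) and the mean of the ribosomal proteins of the small subunit at 10.29 (share 0.504).

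The others were spread over 10 rats. Control rat 10 was lowest in the mean of the T cell and MHC class II genes at 7.67 (share 0.501). Control rat 13 was highest in Rps10 at 10.09 (share 0.529). Control rat 14 was lowest in Ermn at 11.99 (share 0.617). Control rat 15 was highest in Slc4a4 at 11.40 (share 0.494). Control rat 16 was highest in Cd3e at 7.83 (share 0.527) and highest in the mean of the dentate granule markers at 10.04 (share 0.534). High rat 18 was lowest in Prdx5 at 8.58 (share 0.506). High rat 20 was lowest in Rad17 at 7.50 (share 0.679), highest in Zic1 at 8.25 (share 0.547) and highest in the mean of the thalamus and habenula markers at 9.11 (share 0.504). High rat 23 was highest in Cx3cr1 at 11.37 (share 0.561). High rat 25 was lowest in C8g at 8.81 (share 0.545), lowest in Slc17a6 at 7.00 (share 0.549) and lowest in the mean of the neocortex and subiculum markers at 9.38 (share 0.616). High rat 26 was highest in Bmal1 at 8.79 (share 0.556).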

How the results depend on the processing

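The count of 0 called genes held at thresholds of 0.05 and 0.31 and under all other alternatives except these. Removal of values over 2 SD from the group mean, which narrows the spread by construction, gave 15 called genes, Fabp3, Nmbr, Lxn and Slc17a6 among them. Without the 3 arrays of lowest weight (control rat 17, high rats 19 and 26, an alternative chosen after seeing the data) 1 gene was called, Fabp3. With 1 rat left out the count ran from 0 to 1, the gene being Fabp3 without control rat 17 and Nmbr without high rat 25 (adjusted p in limma 0.125). With 1 cage left out it ran from 0 to 4: Fabp3 without the cage of control rats 16 and 17, Pnoc without that of high rats 22 and 23, and Nr4a2, Lxn, Nmbr and Slc17a6 without that of high rats 25 and 26. Genes at an unadjusted p under 0.05 numbered 393, but 649 without the intensity limit, 201 with a limit of 9.20, where fewer genes were tested, and 665 with values over 2 SD removed; they were 312 to 506 with 1 rat and 301 to 506 with 1 cage left out. The cause of the other changes was not tested. None of these differences had been called, so a change of sign was not counted as a reversal; 20 of 155 named genes and 23 of 45 list medians took the other sign under at least 1 alternative. Probe sets with no or several symbols, 5528 at or above the limit, gave 0 called in limma and 281 (5.08%) at an unadjusted p under 0.05. Centring on the medians of tested genes was also chosen after seeing the data. No paired analysis was possible because each cage held 1 diet and no rat number occurs in both diets; cage as a random block or as the unit called 0 genes.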
